A study of Mus musculus with 9 samples.

Results

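The comparison described here is that of CD8 T cells of the Rop7-III line with those of the Rop7-I line, 6 of the 9 RNA-seq samples of the series, with 3 biological replicates of each line. All genes with more than 1 TPM (a unit that divides the reads of a gene by its length and scales them to a fixed total per sample) in at least 1 of these 6 samples were included, which were 11811 of the 24060 genes in the table. The 3 Rop7-II samples served as a reference level and are given beside the values of the genes that differed. Rop7-I, Rop7-II and Rop7-III are lines of transnuclear mice, each made by transfer of the nucleus of 1 CD8 T cell, so that all T cells of a line can inherit the rearranged T-cell receptor (TCR) genes of that cell. Each line is thus 1 clone, and the 3 lines differ in the receptor and in whatever else the donor nucleus and its linked DNA carried.

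The donor cells had been chosen for a receptor that binds a peptide of Rop7, a protein of the parasite Toxoplasma gondii, presented by the class I molecule H-2Ld, and the mice were crossed back to BALB/c. In all 3 lines the cells came from spleens kept overnight with the cytokine IL-2, and were sorted for CD3, CD8 and binding of the H-2Ld-Rop7 tetramer. The study calls the sequenced cells homozygous, a term it uses for the rearranged TCR alpha and beta genes of a line. Neither the number of mice behind a replicate nor the age of the mice is stated in the labels, so that the p-values measure the spread between these samples, which may be partly technical.

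A resting CD8 T cell receives weak, continuous signals through its TCR from self peptides on class I molecules, and survives on cytokines such as IL-7. CD5, a surface protein that dampens TCR signals, is set in the thymus in proportion to the strength of self recognition and is used to rank naive T cells by it. Cells can also differ in their tonic response to interferon, which switches on antiviral genes and the genes for antigen processing, and in their readiness to divide.

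The samples expressed the genes of CD8 T cells throughout. Cd3e, a chain of the TCR complex, stood at 681, 647 and 649.7 TPM in the 3 Rop7-I samples and at 672, 688 and 676 TPM in the 3 Rop7-III samples, and the clones did not differ in it beyond their spread (adjusted p = 0.622, limma). Cd8a stood at 719, 665 and 722 TPM in the Rop7-I samples and 627, 606 and 637 TPM in those of Rop7-III, a lower level in all 3 Rop7-III samples that did not pass the test (log2 fold change -0.17, adjusted p = 0.0271). Of 15 CD8 identity genes tested, 1 passed it, Il7r (6.67%, against 5.06% of all tested genes), and Cd4 was at 0.63 TPM or less in all 6 samples. Transcripts of other cells were present at levels that differed between the samples. The 17 B-cell markers that were measured summed to between 444 and 1157 TPM in Rop7-I and between 165 and 347 TPM in Rop7-III. These ranges did not overlap, and all 17 were lower in Rop7-III, 0 of them with an adjusted p under 0.01 in limma and 1 with an unadjusted p under 0.05. Such an unadjusted p was reached by 3395 of all 11811 genes tested. With only the 6 samples of the 2 clones in the fit, 3 B-cell, 1 myeloid and 1 NK-cell marker passed as lower, and without Rop7-II replicate 1 it was 5, 1 and 1. Ms4a1, which encodes the B-cell antigen CD20, stood at 10.3, 28.1 and 24.5 TPM in the Rop7-I samples and at 4.94, 9.29 and 6.01 TPM in those of Rop7-III. Myeloid and dendritic markers summed to between 213 and 305 TPM in Rop7-I and between 136 and 194 TPM in Rop7-III, and NK-cell markers to between 283 and 296 and between 208 and 235 TPM. The defining NK-cell receptor gene Ncr1 was at 0.34 TPM or less in these samples. In limma 0 of the 16 myeloid and 0 of the 6 NK-cell genes tested passed (1 and 3 at an unadjusted p under 0.05). Red-cell and platelet genes, mostly haemoglobins with near-identical copies, summed to between 437 and 2523 TPM in Rop7-I and between 138 and 513 TPM in Rop7-III, and 0 of the 9 tested passed in limma (0 at an unadjusted p under 0.05). Rop7-II replicate 1 stood apart from all other samples, with 2698 TPM of B-cell markers and 914 TPM of myeloid markers. In bulk samples of this kind, fewer cells of a type and less RNA per cell cannot be told apart.

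The log2(TPM + 1) of the clones was compared with limma across all 11811 genes, and p was adjusted by Benjamini-Hochberg. A gene was called where this adjusted p lay under 0.01 and the clones differed 2-fold or more. By this rule 129 genes differed between the clones, 1.09% of those tested, of which 75 (0.635%) had more and 54 (0.457%) less transcript in Rop7-III. In all 129, each Rop7-III sample lay on the same side of each Rop7-I sample, as was so for 38.6% of all tested genes. The differences were mostly moderate, with 110 of them between 2-fold and 4-fold and 19 above, and 24 of the called genes averaged under 1 TPM in Rop7-I and 17 in Rop7-III. Without the 2-fold minimum 598 genes passed (5.06%), 319 of them higher (2.7%) and 279 lower (2.36%), and the median log2 fold change over all tested genes was -0.0019. Genes that rose or fell are those that passed in this wider sense, and the counts given for lists are to be read against these shares. At any p, 5865 of the 11811 genes were higher in Rop7-III and 5946 lower. Because 1 TPM was added before the logarithm, the fold changes of weakly expressed genes are understated. The number of called genes was 84 when replicate 2 of Rop7-III was left out and 161 when replicate 1 of Rop7-II was, and the number that passed was 247 and 841.

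**Figure D1:**
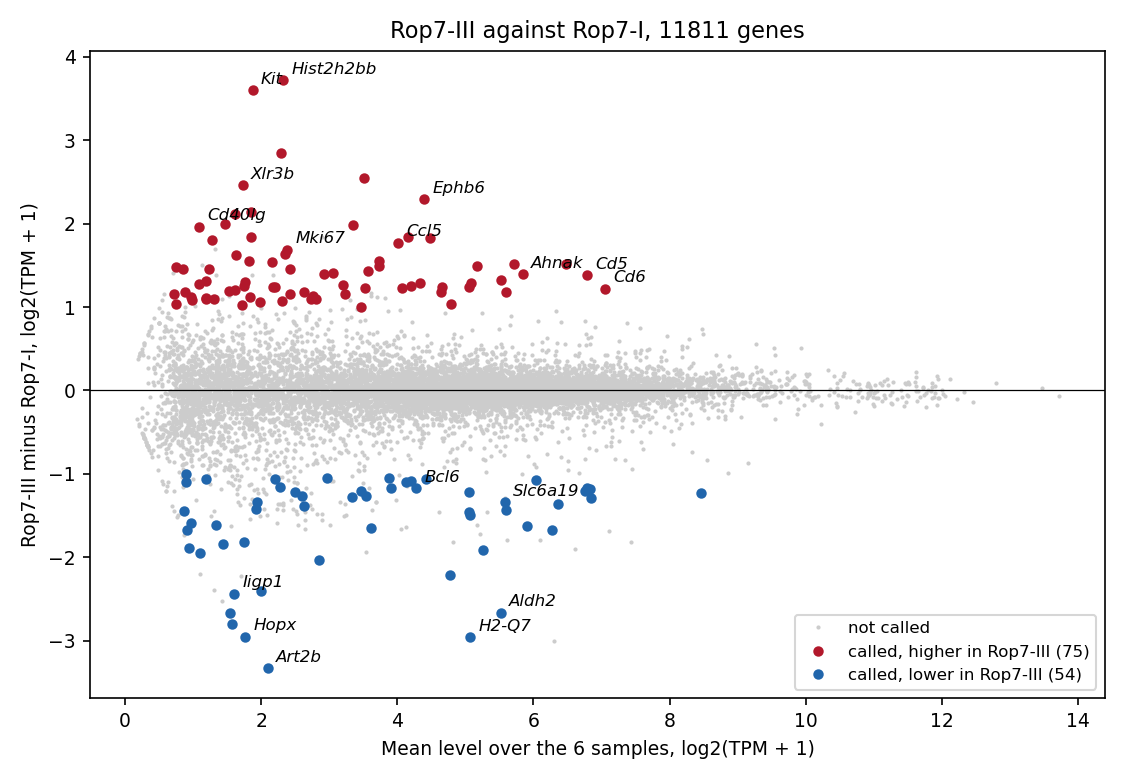
Difference of Rop7-III minus Rop7-I in log2(TPM + 1) against the mean level over the 6 samples in log2(TPM + 1), 1 point per tested gene, with the 75 genes called higher in red, the 54 called lower in blue and the others in grey. Hist2h2bb and Kit lie at the top with differences of 3.72 and 3.60, and Art2b at the bottom with -3.33.

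Among the largest differences were those of genes nearly silent in one clone. Kit, the receptor tyrosine kinase for stem cell factor, stood at 0.05, 0.08 and 0.03 TPM in the Rop7-I samples, 12.7, 12.2 and 10.5 TPM in the Rop7-III samples and 10.3, 10.5 and 8.88 TPM in the Rop7-II samples. Rop7-I was thus the clone nearly without Kit transcripts, and Rop7-III and Rop7-II T cells were close to each other (log2 fold change of Rop7-III against Rop7-I 3.60, standard error 0.10, adjusted p = 5.15e-07). Hist2h2bb, a histone H2B gene, was also lowest in Rop7-I but highest in Rop7-II, with 0.26, 0.3 and 0.6 TPM in the Rop7-I samples, 15.9, 18.9 and 16.9 TPM in those of Rop7-III and 31.2, 22.5 and 20.5 TPM in Rop7-II (log2 fold change 3.72, adjusted p = 1.72e-06), although histone genes have near-identical copies and mostly lack the poly(A) tail by which the RNA was selected. Other large rises were of genes with a clear level in Rop7-I. Tmod4, a tropomodulin that caps actin filaments, rose by 2.55 on the log2 scale, from 3.73 to 26.7 TPM, with 31.3 TPM in Rop7-II. Sord, which oxidizes sorbitol, rose by 1.98, from 4.16 to 19.3 TPM, with 14.1 TPM in Rop7-II.

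Ephb6, an ephrin receptor without kinase activity that is found on T cells, was the most abundant of the 12 largest rises. It stood at 7.89, 7.93 and 9.8 TPM in the Rop7-I samples and 45.2, 43.6 and 48.1 TPM in those of Rop7-III (log2 fold change 2.29, standard error 0.0824, adjusted p = 1.31e-06). Ephb6 in Rop7-II stood at 32.8, 36 and 32.6 TPM. The 3 Rop7-III samples were above all others, and the Rop7-II samples were far above those of Rop7-I. Cd40lg, the ligand by which T cells license dendritic cells and B cells, stood at 0, 0.11 and 0.11 TPM in the Rop7-I samples and 3.7, 2.9 and 3.01 TPM in those of Rop7-III, and it reached 0.347 TPM on average in Rop7-II (log2 fold change 1.97, adjusted p = 3.19e-04). It was low even in Rop7-III, was detectable in all 3 of its samples, and was the 1 of 6 tested markers of CD4 and regulatory T cells that passed (16.7%, against 5.06% of all tested genes). Cd163l1 and 5830411N06Rik, neighbouring genes for scavenger receptors known from gamma-delta T cells, rose to 4.53 and 6 TPM in Rop7-III from 0.397 and 1.03 TPM. The other 4 measured genes of the gamma-delta and innate-like list (Blk, Cxcr6, Ccr6 and Maf) did not pass. Of its 14 members 8 were not tested, Sox13 and Zbtb16 among them, and 33.3% of those tested passed, against 5.06% of all tested genes. The list summed to 37.2 to 45.0 TPM in Rop7-III and 49.2 to 58.9 TPM in Rop7-I. The remaining large rises were those of the chemokine gene Ccl27a (2.85), Xlr3b (2.47), A430093F15Rik (2.13) and Ppp1r3e (2.11), the last of them a targeting subunit of protein phosphatase 1. Ccl27a and Xlr3b have near-identical copies, and Xlr3b was at 0 TPM in Rop7-I replicates 1 and 2 and at 1.81 TPM in replicate 3. Xlr3b and 5830411N06Rik each had an adjusted p over 0.01 without any 1 of 5 samples, up to 0.0168 without Rop7-III replicate 2 and 0.0326 when Rop7-I replicate 1 was left out.

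Among the largest falls, Hopx, an atypical homeodomain cofactor of effector and memory T cells, stood at 8.69, 9.15 and 7.68 TPM in the Rop7-I samples and 0.2, 0.53 and 0 TPM in those of Rop7-III, with 1.11, 0 and 0.4 TPM in Rop7-II. Rop7-I was the only 1 of the 3 clones with a sizeable level (log2 fold change -2.95, standard error 0.27, adjusted p = 1.90e-04). Rop7-I was also far above the other clones in Aldh2, the mitochondrial aldehyde dehydrogenase, at 103, 131 and 112 TPM in the Rop7-I samples, 17.4, 15.6 and 18.9 TPM in those of Rop7-III and 38.3, 10.3 and 10.9 TPM in Rop7-II, where replicate 1 stood above the other 2. Its log2 fold change was -2.66 (adjusted p = 0.00294), which was over 0.01 without any 1 of 6 samples, up to 0.0174 without Rop7-III replicate 2. Afp, the fetal serum protein alpha-fetoprotein, stood at 6.8, 5.23 and 7.03 TPM in Rop7-I and at 0.28 TPM or less in every Rop7-III and Rop7-II sample (log2 fold change -2.66, adjusted p = 1.99e-05).

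Other genes were low in Rop7-III alone. Art2b, which encodes an ADP-ribosyltransferase on the T-cell surface that acts on extracellular NAD, stood at 8.03, 16 and 15.4 TPM in the Rop7-I samples, 5.4, 5.84 and 13.7 TPM in those of Rop7-II and 0.26, 0.34 and 0.46 TPM in those of Rop7-III (log2 fold change -3.33, standard error 0.33, adjusted p = 3.44e-04). The adjacent Art2a-ps, annotated as a pseudogene in the reference genome and sharing sequence with Art2b, fell by 1.44. Gcm1, a transcription factor best known from the placenta, stood at 5.94, 7.43 and 7.37 TPM in the Rop7-I samples and 0, 0.21 and 0.19 TPM in those of Rop7-III (log2 fold change -2.80, adjusted p = 6.72e-05). Gcm1 in Rop7-II stood at 3.48, 4.15 and 6.88 TPM. Ly6k, the 1 of 8 tested genes of the Ly6 family that fell (12.5%, against 5.06% of all tested genes), averaged 3.35 TPM in Rop7-I, 4.11 in Rop7-II and 0.0967 in Rop7-III. On chromosome 9 the adjoining genes Tmie, Als2cl, Gm590 and Tdgf1 fell by 1.92, 1.23, 2.41 and 2.03, and Als2cl, the most abundant of them, averaged 536 ± 4.09 TPM (SD, n = 3) in Rop7-I and 229 ± 21.3 TPM (SD, n = 3) in Rop7-III. The uncharacterized 2210039B01Rik stood at 62.5, 56.7 and 55.7 TPM in the Rop7-I samples, 25.9, 44.3 and 33.5 TPM in those of Rop7-II and 21.4, 10.1 and 7.3 TPM in those of Rop7-III. Its adjusted p was over 0.01 without any 1 of 4 samples, as was that of Ly6k without any 1 of 3 and that of Art2a-ps without any 1 of 5, at most 0.0175, 0.0109 and 0.0214.

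**Figure D2:**
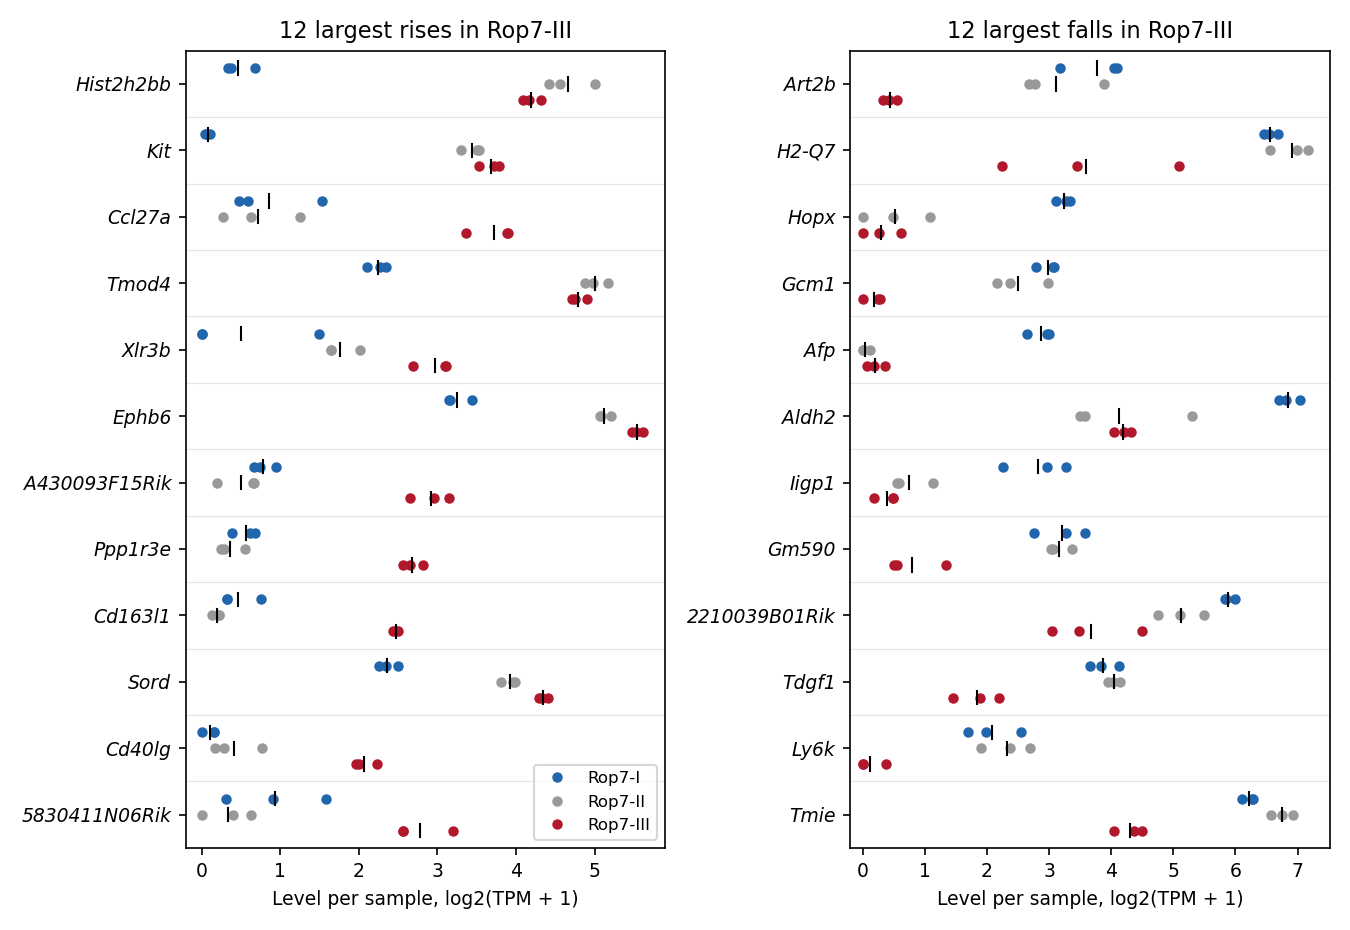
Level of the 12 largest rises and the 12 largest falls in log2(TPM + 1) on the horizontal axis, with each of the 9 samples as a point coloured by clone and a black bar at the mean of a clone. The Rop7-I and Rop7-III points are apart for all 24 genes, and the Rop7-II points lie with Rop7-III for Kit and Hopx and with Rop7-I for Ccl27a and Gm590.

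Interferon-stimulated genes were lower in Rop7-III T cells throughout the list. Of 38 listed genes 35 were tested, and all 35 had less transcript in Rop7-III than in Rop7-I T cells, as had 5946 of all 11811 tested genes. Of the 35, 12 fell and 0 rose (34.3%, against 5.06% of all tested genes). The median log2 fold change was -0.587 against -0.0019 for all tested genes. The immunity-related GTPases, which act against parasites inside cells, and the guanylate-binding proteins held several of the falls. Igtp stood at 180.0, 183 and 152 TPM in the Rop7-I samples and 76, 70.2 and 78.2 TPM in those of Rop7-III (log2 fold change -1.18, adjusted p = 1.89e-04). Igtp in Rop7-II stood at 97.8, 94 and 123 TPM. Iigp1 belongs to the same family and was low outside Rop7-I. It stood at 8.65, 6.78 and 3.76 TPM in the Rop7-I samples and 0.41, 0.14 and 0.4 TPM in those of Rop7-III (log2 fold change -2.44, adjusted p = 6.30e-04). Iigp1 in Rop7-II stood at 1.18, 0.46 and 0.5 TPM. Gbp2 stood at 93, 91.2 and 77.5 TPM in the Rop7-I samples, 61.2, 66 and 65.1 TPM in those of Rop7-II and 48.6, 45.5 and 45.8 TPM in those of Rop7-III, a fall of 0.89 on the log2 scale (adjusted p = 7.90e-05) that did not reach 2-fold. In each of these genes the Rop7-I samples were the highest and did not overlap with either other clone. Irgm1 fell by 0.76 (over the limit without Rop7-III replicate 2, at 0.0103) and Ifi47 by 0.71. Relatives outside the list, named after their values were seen, were called lower as well: Irgm2 (-1.46), Tgtp1 (-1.67) and Tgtp2 (-1.29), which share sequence with each other, and Gbp6 (-1.09) and Gbp10 (-1.27), which belong to a cluster of similar genes and of which Gbp10 was over an adjusted p of 0.01 without any 1 of 5 samples (up to 0.0253). Irf1, an interferon-induced transcription factor that was chosen in the same way, fell from 249 to 176 TPM (log2 fold change -0.50, adjusted p = 4.73e-04).

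Further genes of the list fell by less than 2-fold. Bst2 (tetherin) fell by 0.72, the exonuclease gene Isg20 by 0.62, Oasl1 by 0.73 and the nucleic acid sensor Zbp1 by 0.57. Irf9, a subunit of the factor ISGF3 of the type I response, fell by 0.37, from 139 to 107 TPM, and Parp14 by 0.42. Zbp1 was over an adjusted p of 0.01 without any 1 of 7 samples, Isg20, Irf9 and Parp14 without any 1 of 6 and Oasl1 without any 1 of 5, up to 0.0439, 0.0346, 0.0328, 0.0338 and 0.0275, all without Rop7-I replicate 1. Isg15, a ubiquitin-like protein, had 15.2, 13.3 and 12.7 TPM in the Rop7-I samples and 6.68, 6.45 and 8 TPM in those of Rop7-III without passing the test (log2 fold change -0.87, adjusted p = 0.0196). Ifit3 (-1.02, adjusted p = 0.0326), Usp18 (-1.09, adjusted p = 0.0232) and Ifit1 (-0.65, adjusted p = 0.252) did not pass, and Mx1, at 1.16 and 0.997 TPM on average, had a log2 fold change of -0.11 (adjusted p = 0.702).

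The lower B-cell and myeloid transcripts of Rop7-III moved in the same direction as these genes. Whether other cells account for the lower levels was not tested, and the values at hand are as follows. Rop7-I replicate 1 and Rop7-III replicate 2 were the samples of the 2 clones nearest to each other in B-cell markers (444 and 347 TPM in sum). Between them Igtp was at 180.0 and 70.2 TPM and Gbp2 at 93 and 45.5 TPM, both picked from the 35 genes for a small adjusted p in limma. The same 2 samples still differed in myeloid markers (213 and 136 TPM) and in NK-cell markers (296 and 235 TPM). With the B-cell marker level as a covariate in the fit of 9 samples, an alternative chosen after seeing the data, 15 of the 35 genes fell and the median was -0.69. That fit also draws on Rop7-II replicate 1, at 2698 TPM of these markers against 209 and 296 TPM in the other Rop7-II samples. Rop7-I and Rop7-III did not overlap in them (444 to 1157 and 165 to 347 TPM), so a covariate cannot fully separate their level from the clone. With that covariate in a fit of the 6 samples alone, which leaves few degrees of freedom, 2 fell. The count was 21 with the 6 samples and no covariate, 6 without Rop7-III replicate 2, 7 without any 1 of the Rop7-I samples and 18 without Rop7-II replicate 1. In limma 0 genes of the list rose in any of these fits. Igtp, Iigp1 and Gbp2 passed in each of the 9 fits that left out 1 sample.

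**Figure D3:**
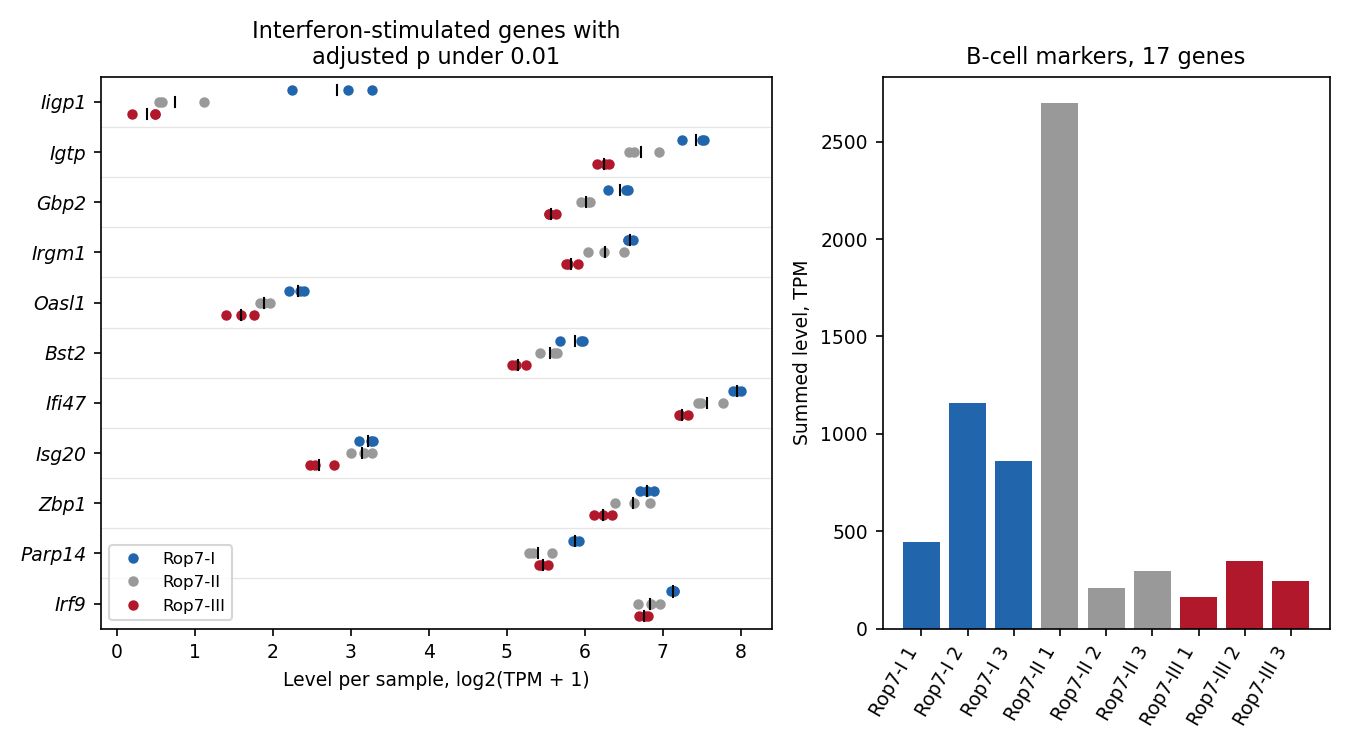
Left, the level in log2(TPM + 1) of 11 of the 12 interferon-stimulated genes with an adjusted p under 0.01, each sample as a point coloured by clone with a black bar at the mean. Right, the summed TPM of 17 B-cell markers in each of the 9 samples. The Rop7-I points lie to the right of those of Rop7-III for each gene shown, and the bar of Rop7-II replicate 1 is the highest at 2698 TPM.

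The start regions of some fallen genes are shown because genes of this list are known targets of interferon-activated factors. In the 250 bases before the start of 23 of the tested genes in RefSeq (GRCm38.p6), 56.5% held GAAA, any 2 bases and GAAA again, the core of the element bound by the interferon-activated factor ISGF3 (ISRE), and 26.1% held TTCNNNGAA, the interferon-gamma activated sequence (GAS), on either strand, against 2.98% and 7.02% of 32851 promoters in all. Both motifs were chosen for what is known of the list, and a match shows only that the letters are present. The sequences shown are those of 4 fallen genes of small adjusted p, chosen after their values were seen from the entries at hand, with the letters of the 2 motifs in capitals.
Gbp2, chr3:142620413-142620662, plus strand: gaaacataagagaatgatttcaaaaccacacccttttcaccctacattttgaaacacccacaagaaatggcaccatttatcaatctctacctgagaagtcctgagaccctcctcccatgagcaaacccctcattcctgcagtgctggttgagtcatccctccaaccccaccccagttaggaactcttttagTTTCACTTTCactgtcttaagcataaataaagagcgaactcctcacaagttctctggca
Igtp, chr11:58199306-58199555, plus strand: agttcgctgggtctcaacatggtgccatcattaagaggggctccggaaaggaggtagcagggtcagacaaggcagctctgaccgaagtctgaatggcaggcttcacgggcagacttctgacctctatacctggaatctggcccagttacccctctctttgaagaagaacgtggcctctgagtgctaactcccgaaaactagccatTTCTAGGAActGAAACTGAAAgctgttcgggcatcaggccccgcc
Ifi47, chr11:49076337-49076586, plus strand: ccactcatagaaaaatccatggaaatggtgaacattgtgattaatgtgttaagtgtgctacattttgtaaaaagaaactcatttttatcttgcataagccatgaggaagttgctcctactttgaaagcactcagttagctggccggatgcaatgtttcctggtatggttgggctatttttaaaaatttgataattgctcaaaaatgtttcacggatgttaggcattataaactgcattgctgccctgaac
Bst2, chr8:71537473-71537722, minus strand: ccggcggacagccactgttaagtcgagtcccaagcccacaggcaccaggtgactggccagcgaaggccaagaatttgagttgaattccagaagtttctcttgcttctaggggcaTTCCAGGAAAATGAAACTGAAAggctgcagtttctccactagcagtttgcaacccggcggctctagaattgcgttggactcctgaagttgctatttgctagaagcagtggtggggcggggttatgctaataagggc
Gbp2 held an ISRE core, Igtp and Bst2 held both motifs, which overlap in Bst2, and Ifi47 held neither in this window although its transcript fell from 248 to 151 TPM.

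The genes for antigen presentation on class I molecules were lower to a smaller extent. Of 24 tested, 9 fell and 0 rose (37.5%, against 5.06% of all tested genes), with a median log2 fold change of -0.301. At any p, 23 of the 24 were lower. Nlrc5, the transactivator of the class I genes, stood at 181, 159 and 155 TPM in the Rop7-I samples and 68.7, 73.2 and 76.2 TPM in those of Rop7-III (log2 fold change -1.17, standard error 0.0779, adjusted p = 3.70e-05). Nlrc5 in Rop7-II stood at 116, 119 and 139 TPM. The Rop7-III samples were below all others. The immunoproteasome subunits Psmb9 and Psmb8 fell by 0.49 and 0.24, the peptide transporter gene Tap1 by 0.43, its partner Tapbp by 0.27, and B2m, the shared light chain, by 0.17, from 4154 to 3689 TPM. The heavy chain genes of the classical molecules, H2-K1 (-0.17, adjusted p = 0.297) and H2-D1 (-0.19, adjusted p = 0.0487), did not pass, and neither did H2-L (-0.30), which encodes the heavy chain that presents the Rop7 peptide. Among the class Ib genes H2-T22 fell by 0.62 and H2-T23, which encodes the Qa-1 molecule, by 0.34. H2-Q7, a Qa-2 gene, had the largest difference of the list but was uneven, at 102, 91.6 and 86.6 TPM in the Rop7-I samples and 33.3, 9.9 and 3.72 TPM in those of Rop7-III (log2 fold change -2.96, standard error 0.56, adjusted p = 0.00928). H2-Q7 in Rop7-II stood at 126, 93.4 and 142 TPM. The 3 Rop7-III samples were below all others but spread widely among themselves, and the call was lost without any 1 of 7 samples (adjusted p up to 0.0454 without Rop7-I replicate 1). Class I heavy chain genes also share reads. Tap1, Tapbp, H2-T23 and B2m were over an adjusted p of 0.01 without any 1 of 4, 5, 5 and 6 samples (up to 0.0129, 0.0205, 0.019 and 0.031), and Nlrc5, Psmb9, Psmb8 and H2-T22 passed in all 9 fits. The count of 9 was 4 without replicate 1 or 2 of Rop7-I or replicate 2 of Rop7-III, 5 without replicate 1 or 3 of Rop7-III, 8 with the B-cell covariate and 2 with it in the fit of the 6 samples alone.

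**Figure D4:**
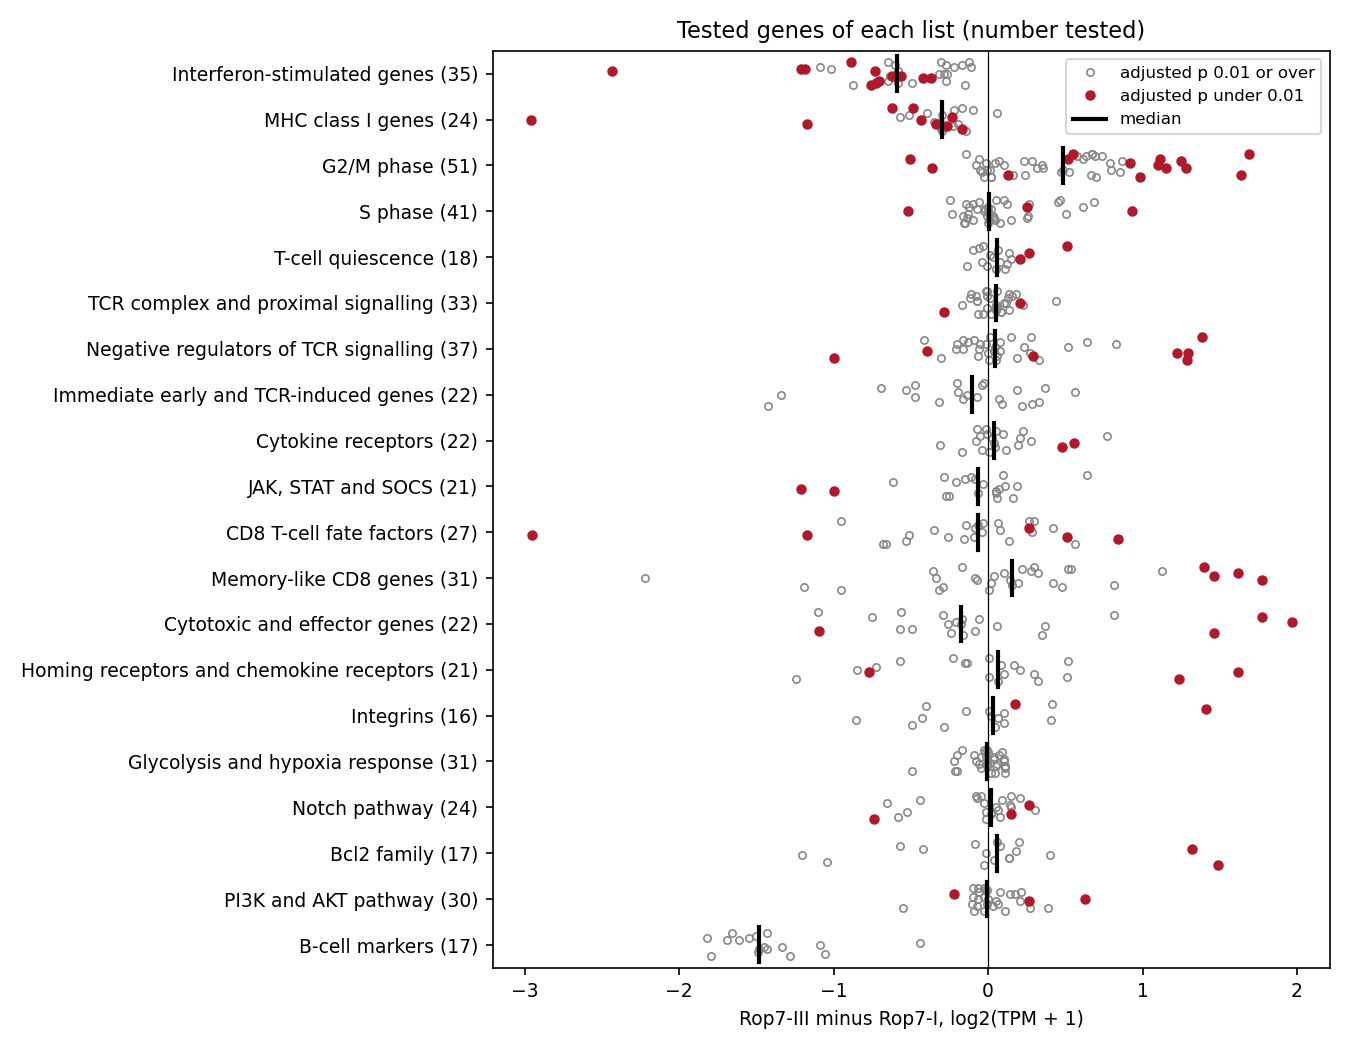
Difference between Rop7-III and Rop7-I in log2(TPM + 1) for every tested gene of 20 lists, with genes under an adjusted p of 0.01 as filled red points, the others as open points and a black bar at the median of the list. The interferon-stimulated list lies wholly to the left of 0 with a median of -0.587, as do the B-cell markers at -1.49 without a filled point, and the G2/M list lies mostly to the right with a median of 0.485.

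Genes of the G2 and M phases of the cell cycle moved the other way. Of 51 tested, 41 were higher in Rop7-III, as were 5865 of all 11811 tested genes. In the list 12 rose and 2 fell (27.5%, against 5.06% of all tested genes), and the median log2 fold change was 0.485. Mki67, which encodes the Ki-67 antigen of cycling cells, stood at 1.48, 1.68 and 2.72 TPM in the Rop7-I samples, 1.75, 1.45 and 1.07 TPM in those of Rop7-II and 6.6, 8.51 and 10.5 TPM in those of Rop7-III. Top2a, the topoisomerase that untangles chromosomes before they separate, stood at 1.67, 1.84 and 2.16 TPM in the Rop7-I samples, 1.32, 1.12 and 0.62 TPM in those of Rop7-II and 5.89, 8.38 and 10.2 TPM in those of Rop7-III. Both were higher in each Rop7-III sample than in any other, and both were still low next to the T-cell genes above. Spindle and chromosome genes of the list at a similar level rose likewise, Tpx2 by 1.11, Nusap1 by 1.25, Kif11 by 0.92, Ckap2l by 1.10 and Fam64a by 1.28, as did Ube2c, which attaches ubiquitin to cyclins at the end of mitosis, by 0.99.

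More abundant genes of the list changed less. Smc4, a condensin subunit, stood at 591, 591 and 677 TPM in the Rop7-I samples and 884, 869 and 898 TPM in those of Rop7-III, and averaged 557 TPM in Rop7-II (log2 fold change 0.52, standard error 0.0512, adjusted p = 3.44e-04). It passed in all 9 fits with a sample left out. In a list of cohesin, condensin and SMC5/6, 1 of 29 tested genes rose (3.45%, against 5.06% of all tested genes), Smc4 itself. Smc2, its partner in condensin, was at 14.6 and 13.7 TPM on average (log2 fold change -0.09, adjusted p = 0.36). Hmgb2, a chromatin protein, stood at 80.6, 94.8 and 93.5 TPM in the Rop7-I samples and 128, 131 and 135 TPM in those of Rop7-III, and Hn1, present at 306 TPM in Rop7-I, rose by 0.13. The heterochromatin protein gene Cbx5 fell from 25.1 ± 0.548 to 17.4 ± 0.381 TPM (SD, n = 3 each) and Hjurp, the chaperone that loads the centromeric histone, from 30.5 ± 1.19 to 23.5 ± 1.71 TPM. Outside the list and named after their values were seen, the spindle checkpoint kinase gene Bub1b (1.18), the centromere gene Cenpw (1.197), 2810417H13Rik (1.10), which encodes a partner of PCNA, and the DNA glycosylase gene Neil3 (1.03) were called higher, all of them under 4 TPM on average. The count of 12 rises in the G2/M list was 6 without Rop7-III replicate 2, 7 without replicate 1 or 3 of Rop7-I or replicate 3 of Rop7-III, 9 with the B-cell covariate and 1 with it in the fit of the 6 samples alone. Tpx2 and Ckap2l were over an adjusted p of 0.01 without any 1 of 5 samples (up to 0.0233 and 0.0233), Ube2c without any 1 of 7 (up to 0.0442), Kif11 without any 1 of 6 (up to 0.0258), Hn1 without any 1 of 8 (up to 0.031), Hjurp without any 1 of 5 (up to 0.0307) and Nusap1 without Rop7-III replicate 2 (0.0101). Of the genes outside the list, Bub1b, Neil3 and 2810417H13Rik were so without any 1 of 5, 6 and 7 samples (up to 0.0214, 0.0277 and 0.0387), whereas Mki67, Top2a, Fam64a and Cenpw passed in all 9 fits.

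The promoters of 4 risen G2/M genes, those of smallest adjusted p for which an entry was at hand, are shown, since genes of this list are known to be repressed in resting cells through a cell cycle homology region (CHR, here TTTGAA or TTCGAA) and activated through CCAAT boxes. Capitals mark both motifs on either strand. For Mki67 and Top2a the stretch ends where the annotated gene begins, so that fewer than 250 bases are given.
Hmgb2, chr8:57511593-57511842, plus strand: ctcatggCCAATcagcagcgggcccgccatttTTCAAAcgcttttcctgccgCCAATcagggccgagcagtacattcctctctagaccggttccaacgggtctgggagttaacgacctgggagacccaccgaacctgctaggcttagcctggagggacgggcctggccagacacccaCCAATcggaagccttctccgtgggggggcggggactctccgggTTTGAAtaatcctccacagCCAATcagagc
Birc5, chr11:117848987-117849236, plus strand: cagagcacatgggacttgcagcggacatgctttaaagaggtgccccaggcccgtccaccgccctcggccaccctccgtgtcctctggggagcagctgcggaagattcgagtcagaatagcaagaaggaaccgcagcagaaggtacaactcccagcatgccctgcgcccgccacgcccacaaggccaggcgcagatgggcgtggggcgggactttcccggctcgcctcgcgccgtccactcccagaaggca
Mki67, chr7:135716451-135716629, minus strand: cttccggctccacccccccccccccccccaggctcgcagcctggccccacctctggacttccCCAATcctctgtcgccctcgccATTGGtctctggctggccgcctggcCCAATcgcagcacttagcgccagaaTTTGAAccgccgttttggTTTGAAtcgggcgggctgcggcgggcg
Top2a, chr11:99024200-99024439, minus strand: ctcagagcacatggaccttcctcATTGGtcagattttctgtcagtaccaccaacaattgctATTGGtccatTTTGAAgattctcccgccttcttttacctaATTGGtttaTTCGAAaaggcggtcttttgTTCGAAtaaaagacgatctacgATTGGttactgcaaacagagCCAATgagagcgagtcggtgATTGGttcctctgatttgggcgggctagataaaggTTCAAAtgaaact
In the 250 bases before the start, 44.4% of the 45 matched genes of the list held a CHR and 75.6% held a CCAAT box, against 17.1% and 33.8% of 32851 promoters in all, whichever way the genes moved. In the printed stretches Top2a held 4 CHR and 6 CCAAT matches and Hmgb2 held 2 and 4, while Birc5, which encodes survivin and rose from 2.59 to 7.04 TPM, held neither.

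In the lists of the other phases the share that passed, 7.32% for S phase and 5.0% for G1, was near the 5.06% of all tested genes. Of 41 S-phase genes 2 rose and 1 fell, with a median log2 fold change of 0.004. Rrm2, the regulated subunit of ribonucleotide reductase, rose from 2.68 ± 0.289 to 6.01 ± 0.602 TPM (SD, n = 3 each, adjusted p = 0.00172), Casp8ap2 rose by 0.25, and Ung, which removes uracil from DNA, fell by 0.52. The replication genes Mcm2 (-0.23, adjusted p = 0.03), Mcm5 (-0.25, adjusted p = 0.0144) and Pcna (-0.16, adjusted p = 0.0377) were lower without passing. Of 20 genes for G1 cyclins, cyclin-dependent kinases and their inhibitors 1 rose, the inhibitor Cdkn2c, at 2.14, 4.01 and 3.45 TPM in the Rop7-I samples and 9.69, 7.49 and 7.9 TPM in those of Rop7-III (log2 fold change 1.18, adjusted p = 0.00941). Of 18 genes that keep T cells quiescent 3 rose, the transcription factor genes Klf2 (0.51), Foxo1 (0.27) and Ets1 (0.20). This was 16.7% of the quiescence list, against 5.06% of all tested genes, and 0 passed without Rop7-I replicate 1 or without replicate 2 or 3 of Rop7-III. Klf2 stood at 806, 870.0 and 775 TPM in the Rop7-I samples, 1072, 1194 and 1234 TPM in those of Rop7-III and 1311 TPM on average in Rop7-II. Cdkn2c and Ets1 were over an adjusted p of 0.01 without any 1 of 7 samples (up to 0.0429 and 0.0464), Foxo1 and Casp8ap2 without any 1 of 6 (up to 0.0349 and 0.0273), and Klf2 and Rrm2 without any 1 of 3 (up to 0.0123 and 0.0115).

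Among genes of TCR signalling, several inhibitors differed between the clones. Of 37 negative regulators tested, 5 rose and 2 fell (18.9%, against 5.06% of all tested genes), with a median log2 fold change of 0.045. Cd5 stood at 72.9, 71.5 and 58.5 TPM in the Rop7-I samples and 176, 181 and 175 TPM in those of Rop7-III (log2 fold change of Rop7-III against Rop7-I 1.39, standard error 0.15, adjusted p = 4.73e-04). Cd5 in Rop7-II stood at 33.4, 52.9 and 37.9 TPM. The clones were ordered Rop7-II, Rop7-I and Rop7-III without overlap. Cd6, a relative of CD5 on the same chromosome, stood at 91.3, 85.2 and 81.8 TPM in the Rop7-I samples and 208, 212 and 186 TPM in those of Rop7-III (log2 fold change 1.22, adjusted p = 9.15e-04). Cd6 in Rop7-II stood at 51.6, 78.3 and 50.5 TPM, and the order of the clones was the same. Ubash3b (Sts-1), a phosphatase that acts on the kinase ZAP-70, stood at 11.6, 12.7 and 11.6 TPM in the Rop7-I samples and 30.3, 32.5 and 29.2 TPM in those of Rop7-III (log2 fold change 1.29, adjusted p = 6.83e-04). Ubash3b in Rop7-II stood at 7.72, 4.98 and 4.64 TPM. In all 3 genes the Rop7-III samples were far above the highest of the other 6, and the calls held in each of the 9 fits with a sample left out.

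The phosphatase gene Dusp4, which is induced by and inactivates MAP kinases, was low in all clones, at 0.96, 1.52 and 1.04 TPM in the Rop7-I samples and 4.05, 3.85 and 5.09 TPM in those of Rop7-III (log2 fold change 1.30, adjusted p = 0.00341). Sla, an adaptor that promotes the degradation of the TCR complex, rose by 0.29. Socs3, a feedback inhibitor of cytokine receptors, fell by 1.00, from 184, 134 and 119 TPM in Rop7-I to 73.7, 78.8 and 62.5 TPM in Rop7-III with 159 TPM in Rop7-II, and Dusp10 fell by 0.39. Socs3 was over an adjusted p of 0.01 without any 1 of 3 samples, up to 0.0151 without Rop7-III replicate 3, Dusp4 without any 1 of 5, up to 0.0192 without Rop7-I replicate 1. Sla and Dusp10 were so without any 1 of 5 and 7 samples (up to 0.0316 and 0.0355), and the number of rises in the list was 3 without Rop7-I replicate 1 or 3. The coinhibitory receptor genes Ctla4 (-0.42) and Lag3 (0.51) did not pass.

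**Figure D5:**
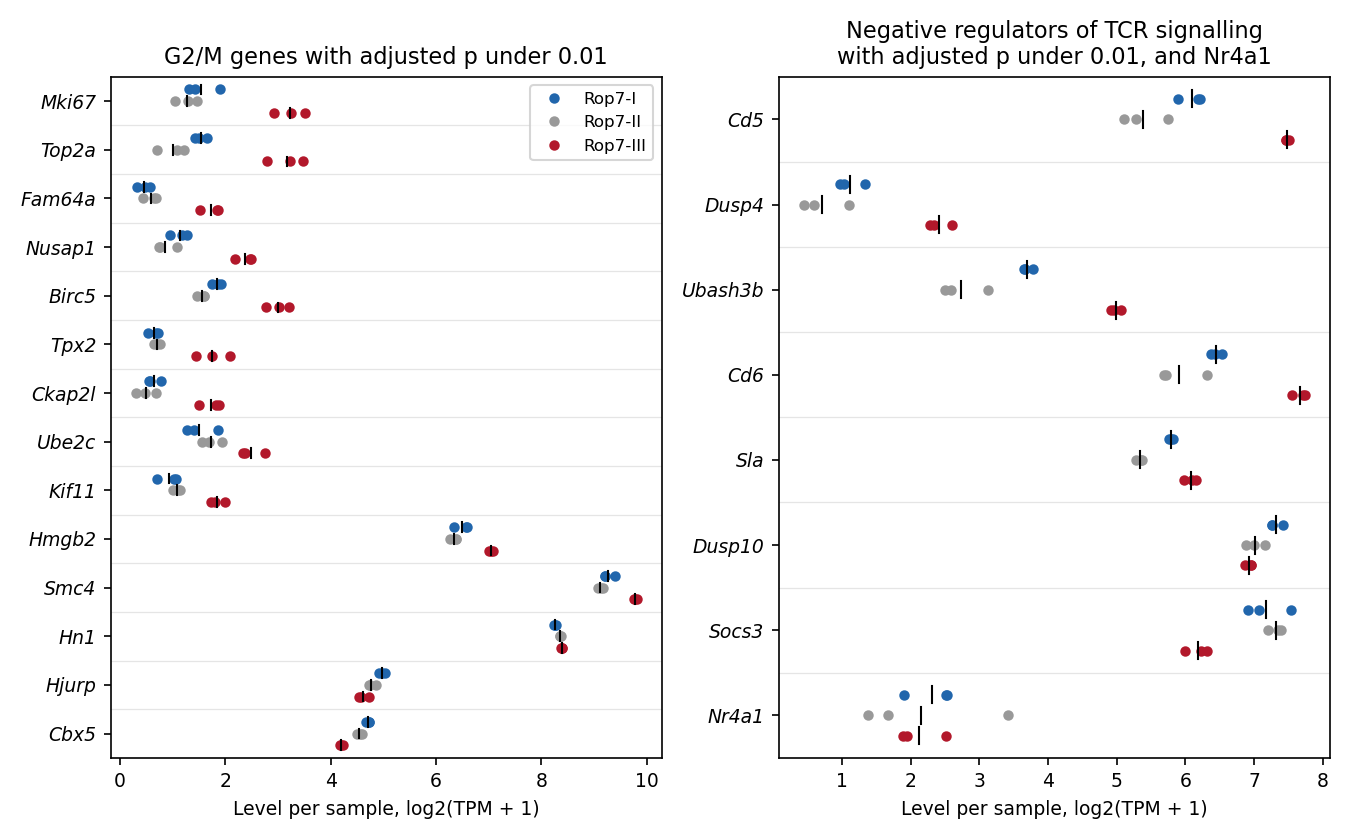
Level in log2(TPM + 1) of the 14 G2/M genes (left) and of the 7 negative regulators of TCR signalling (right) with an adjusted p under 0.01, and of Nr4a1, with each sample as a point coloured by clone and a black bar at the mean. In Cd5, Cd6 and Ubash3b the order is Rop7-II, Rop7-I, Rop7-III without overlap between Rop7-III and the others, and the 3 clones overlap in Nr4a1.

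For the signalling machinery itself the share that passed, 6.06%, was near the 5.06% of all tested genes. Of 33 genes of the TCR complex and its first kinases and adaptors, 1 rose and 1 fell, with a median log2 fold change of 0.051. Fyn, a Src-family kinase, rose by 0.21 and Cd226, an activating receptor, fell by 0.28, and both were over an adjusted p of 0.01 without any 1 of at least 6 samples (up to 0.0363 and 0.03). The costimulatory receptor gene Cd28 stood at 129, 131 and 139 TPM in the Rop7-I samples, 156, 151 and 160.2 TPM in those of Rop7-III and 93.6, 97.6 and 102 TPM in Rop7-II, higher in every Rop7-III sample and just over the limit (log2 fold change 0.23, adjusted p = 0.0105). Of 22 immediate early and TCR-induced genes 0 passed in limma, and their median was -0.104, with 2 falls in the fit of the 6 samples alone. An unadjusted p under 0.05 was reached by 8 of them, against 3395 of all 11811 tested genes. Nr4a1, the source of the Nur77 reporter of TCR signal strength, stood at 2.74, 4.69 and 4.79 TPM in the Rop7-I samples and 2.69, 4.7 and 2.85 TPM in those of Rop7-III (log2 fold change -0.20, standard error 0.47, adjusted p = 0.818). Nr4a1 in Rop7-II stood at 9.7, 1.59 and 2.19 TPM. The Rop7-I and Rop7-III values overlapped, and with the B-cell covariate the difference turned to 0.65 (adjusted p = 0.0201).

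Among receptors for cytokines 2 of 22 rose and 0 fell (9.09%, against 5.06% of all tested genes), with a median log2 fold change of 0.041. The count of rises was 6 without Rop7-II replicate 1 or with only the 6 samples in the fit, 4 with the B-cell covariate, and 1 without replicate 1 or 2 of Rop7-I or any 1 sample of Rop7-III. Il7r, the receptor chain by which naive T cells take up the survival signal of IL-7, stood at 473, 525 and 533 TPM in the Rop7-I samples and 747, 730.0 and 771 TPM in those of Rop7-III (log2 fold change 0.55, standard error 0.0523, adjusted p = 2.64e-04). Il7r in Rop7-II stood at 300.2, 318 and 333 TPM. The 3 clones were fully apart in this gene. Il10ra rose by 0.48 and was over the limit without any 1 of 5 samples (up to 0.0243 without Rop7-III replicate 2). Il2rb (0.19, adjusted p = 0.0676) and Il2rg (-0.05, adjusted p = 0.327), which encode the signalling chains of the IL-2 receptor, did not pass. Of 21 genes for JAK, STAT and SOCS proteins 0 rose and Socs3 was among the 2 that fell (9.52%, against 5.06% of all tested genes). Socs1, at 86.9, 98.2 and 89.8 TPM in the Rop7-I samples and 138, 145 and 147 TPM in those of Rop7-III, was higher without passing (log2 fold change 0.64, adjusted p = 0.0279).

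Some genes of experienced and effector CD8 T cells were higher in Rop7-III, although most members of these lists did not pass. Of 31 memory-like genes 4 rose and 0 fell (12.9%, against 5.06% of all tested genes), with a median log2 fold change of 0.152. Ahnak, a large scaffold protein, stood at 30.7, 32.6 and 40.7 TPM in the Rop7-I samples and 87.2, 95.6 and 94.3 TPM in those of Rop7-III (log2 fold change 1.40, adjusted p = 1.22e-04). Ahnak in Rop7-II stood at 52.1, 42 and 40.1 TPM. The chemokine gene Ccl5 stood at 9.03, 7.28 and 6.92 TPM in the Rop7-I samples and 26.4, 29.6 and 30.4 TPM in those of Rop7-III (log2 fold change 1.77, adjusted p = 0.00172). Ccl5 in Rop7-II stood at 6.51, 2.42 and 3.48 TPM. Cxcr3, which guides T cells to inflamed tissue, stood at 0.62, 0.62 and 1.13 TPM in the Rop7-I samples and 2.59, 4.84 and 6.74 TPM in those of Rop7-III, and Xcl1, a chemokine gene for cross-presenting dendritic cells, at 0, 0.3 and 0 TPM in the Rop7-I samples and 1.84, 1.21 and 3.31 TPM in those of Rop7-III. Rop7-III was above both other clones in each of the 4 genes, and Cxcr3 and Xcl1 were low even there.

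Other genes of such cells moved differently. Cd44 (0.30, adjusted p = 0.661), a marker of experienced cells, did not pass. Eomes, a transcription factor of memory CD8 T cells, was lower in every Rop7-III sample without passing (-0.95, adjusted p = 0.0171), and so was Ly6a (-2.22, adjusted p = 0.0132). Of 22 cytotoxic and effector genes 3 rose, Ccl5, Xcl1 and Cd40lg, of which Ccl5 and Xcl1 are also counted among the memory-like rises. With the 1 fall given below, 18.2% of the cytotoxic list passed, against 5.06% of all tested genes. The list as a whole leaned the other way, with a median log2 fold change of -0.174 and 15 genes lower and 7 higher at any p. Tnfsf8, which encodes the ligand of CD30, fell from 24.8 ± 3.25 to 11.1 ± 1.41 TPM (SD, n = 3 each) with 5.8 TPM in Rop7-II, the 1 fall of the list, while the granzyme gene Gzma (-1.10) did not pass. Cxcr3 was over an adjusted p of 0.01 without any 1 of 7 samples (up to 0.0459), Xcl1 and Tnfsf8 without any 1 of 6 (up to 0.0285 and 0.0264) and Ccl5 without any 1 of 3 (up to 0.0119). The count of memory-like rises was 1 without Rop7-I replicate 2 and 7 without Rop7-II replicate 1.

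Of 27 transcription factors of CD8 T-cell fate 3 rose and 2 fell (18.5%, against 5.06% of all tested genes). Runx2, which acts in long-lived memory cells, stood at 7.7, 8.36 and 6.8 TPM in the Rop7-I samples and 15.2, 13.4 and 14.7 TPM in those of Rop7-III (log2 fold change 0.84, adjusted p = 4.73e-04). Runx2 in Rop7-II stood at 5.68, 6.1 and 5.46 TPM. The repressor gene Bcl6 stood at 30.9, 30.3 and 23.6 TPM in the Rop7-I samples, 17.7, 14.1 and 16.1 TPM in those of Rop7-II and 12.1, 13.4 and 10.4 TPM in those of Rop7-III (log2 fold change -1.17, adjusted p = 5.59e-04), and the other fall was that of Hopx. Each clone was apart from the others in Runx2 and in Bcl6. Without Rop7-I replicate 1 or without replicate 2 or 3 of Rop7-III the list held 1 rise, and without Rop7-II replicate 1 it held 4 falls. Tcf7, which marks naive and stem-like T cells, was at 2233 and 2447 TPM on average and did not pass (0.13, adjusted p = 0.103).

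Receptors for homing and adhesion showed single changes. Of 21 homing and chemoattractant receptor genes 2 rose, Cxcr3 and Ptger2, and 1 fell (14.3%, against 5.06% of all tested genes). Without replicate 1 or 3 of Rop7-I or replicate 2 of Rop7-III 0 rose in limma, and without Rop7-II replicate 1 there were 4 rises and 2 falls. Ptger2, a prostaglandin E2 receptor, stood at 1.83, 2.7 and 1.55 TPM in the Rop7-I samples, 0.6, 0.22 and 0.19 TPM in those of Rop7-II and 6.71, 6.24 and 5.25 TPM in those of Rop7-III, and its call was lost without any 1 of 4 samples (up to 0.0175). Gpr183 (EBI2), the receptor for oxysterols that positions lymphocytes, fell by 0.77, from 59.7, 69 and 55.8 TPM in Rop7-I to 37.9, 35 and 33.5 TPM in Rop7-III with 31 TPM in Rop7-II. The lymph node homing gene Ccr7 (0.10, adjusted p = 0.0371) did not pass. Of 16 integrin chain genes 2 rose (12.5%, against 5.06% of all tested genes). Itga9 stood at 3.08, 5.44 and 4.09 TPM in the Rop7-I samples and 14.8, 12.4 and 11 TPM in those of Rop7-III with 2.59 TPM in Rop7-II (log2 fold change 1.41, adjusted p = 0.00122). Itgb2 rose by 0.17 and was over the limit without any 1 of 7 samples (up to 0.0387).

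Genes for handling nutrients and metabolites at the surface differed in a few members. Slc6a19, a transporter of neutral amino acids, stood at 74.5, 64.7 and 88.6 TPM in the Rop7-I samples and 32.6, 24.3 and 31.2 TPM in those of Rop7-III (log2 fold change -1.34, adjusted p = 3.01e-04). Slc6a19 in Rop7-II stood at 396, 349 and 403 TPM. Rop7-I and Rop7-III were thus nearer to each other than to Rop7-II. Slc43a1, another amino acid carrier, rose from 2.3 ± 0.624 to 8.06 ± 2.03 TPM (SD, n = 3 each), and 13 of the 15 amino acid transporter genes did not pass. The share that passed was 13.3%, against 5.06% of all tested genes. Of 14 surface genes for NAD, ATP and adenosine, 3 fell, Art2b, Art2a-ps and the phosphatase gene Acpp, which fell by 0.54 to 87.5 TPM with 23.8 TPM in Rop7-II. Adk, which phosphorylates adenosine, rose by 0.58, and 28.6% of this list passed, against 5.06% of all tested genes. Slc43a1 was over an adjusted p of 0.01 without Rop7-III replicate 2 (0.0121), Adk without any 1 of 2 samples (up to 0.0104) and Acpp without any 1 of 5 (up to 0.0196). Of 31 genes of glycolysis and the hypoxia response 0 passed in limma, with 1 fall in the fit of the 6 samples alone. An unadjusted p under 0.05 was reached by 11 of the 31, against 3395 of all 11811 tested genes. Pdk1, at 38, 239 and 41 TPM in Rop7-I, Rop7-II and Rop7-III, had a log2 fold change of 0.11.

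Among regulators of survival, Bbc3, which encodes the death-promoting protein PUMA, stood at 22.6, 18.6 and 20.4 TPM in the Rop7-I samples and 59.9, 60.7 and 57.9 TPM in those of Rop7-III (log2 fold change 1.49, standard error 0.076, adjusted p = 5.75e-06). Bbc3 in Rop7-II stood at 27.1, 23.7 and 23.4 TPM. Its Rop7-III samples lay far above all others and close together. Bcl2l2 (BCL-w), which opposes cell death, rose to 2.62 TPM from 0.46 TPM and was over an adjusted p of 0.01 without any 1 of 5 samples (up to 0.0157). The other 15 genes of the family, among them Bcl2l11 (0.13, adjusted p = 0.149), which encodes BIM, did not pass. In this family 11.8% of the tested genes passed, against 5.06% of all tested genes. Of 30 genes of the PI3K and AKT pathway 2 rose and 1 fell (10.0%, against 5.06% of all tested genes). Tbc1d4, an AKT substrate, rose by 0.63 and Foxo1 rose as well, while Pik3cd, the lymphocyte catalytic subunit, fell by 0.22. Of 24 Notch pathway genes 12.5% passed, against 5.06% of all tested genes. Maml2 (0.26) and Mfng (0.15) rose and Dtx1, a target of Notch, fell by 0.74, from 34.8 to 20.4 TPM with 56.3 TPM in Rop7-II. Pik3cd, Maml2, Mfng and Dtx1 were over an adjusted p of 0.01 without any 1 of 7, 7, 8 and 5 samples, up to 0.0391, 0.0378, 0.036 and 0.0377.

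Of 27 costimulatory and coinhibitory receptor genes 14.8% passed, against 5.06% of all tested genes. Cd101 rose by 0.73 and Cd84 by 0.37, and Slamf6 and Cd226 fell by 0.28 and 0.28. Of the 8 Gimap genes, GTPases of lymphocyte survival that lie together on the genome, Gimap8 fell from 422 ± 2.69 to 336 ± 5.15 TPM (SD, n = 3 each, adjusted p = 9.38e-05) and Gimap7 by 0.44. The share of this family that passed was 25.0%. Of 22 genes for glycan branching and sialylation only B4galt1, a galactosyltransferase, rose, by 0.30, and this share of 4.55% was near the 5.06% of all tested genes. These differences were all under 2-fold, and those of Cd101, Cd84, Gimap7 and B4galt1 were over an adjusted p of 0.01 without any 1 of 6, 5, 5 and 4 samples (up to 0.0203, 0.0253, 0.0243 and 0.012).

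Many of the called genes were neighbours. On GRCm38, 55 of the 129 (42.6%) lay within 1 Mb of another called gene, whereas 15.8% of all tested genes lay within 1 Mb of a called gene. Igtp (chromosome 11, 58199556 to 58207592) and Irgm2 (chromosome 11, 58214977 to 58222783) were such a pair, both lower, and so were Gbp10 and Gbp6 on chromosome 5 and Tlr1 and Tlr6, also on chromosome 5, which rose by 1.51 and 1.01. Cd5 (chromosome 19, 10718107 to 10739026), A430093F15Rik (chromosome 19, 10740947 to 10786043) and Cd6 (chromosome 19, 10789339 to 10830062) followed each other and all rose, with the called gene AW112010 further along, which fell by 1.36. Hist2h4 (chromosome 3, 96262934 to 96263317) rose by 1.43 beside Hist2h2bb (chromosome 3, 96269700 to 96270192). As no strand was kept, reads of overlapping genes, such as Cd163l1 and Olfr524, cannot be assigned with certainty. A430093F15Rik is a long noncoding RNA that fills most of the gap between Cd5 and Cd6.

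The TCR loci themselves differ between the clones, and DNA linked to a rearranged locus can stem from the donor nucleus. Within 20 Mb of the Tcra locus (chromosome 14, 52427967 to 54224198) lay 10 called genes (7.75%, against 1.91% of tested genes), and within 20 Mb of the Tcrb locus (chromosome 6, 40891296 to 41558371) lay 3 (2.33%, against 1.19%). Of the former, Ptger2, Gch1 (1.23), Rpgrip1 (1.27), Sall2 (1.54), Ppp1r3e and Bcl2l2 rose and Atg14 (-1.63), Ccnb1ip1 (-1.68), Rnase4 (-1.01) and Ppp3cc (-1.07) fell. Atg14, an autophagy gene, stood at 103, 103 and 108 TPM in the Rop7-I samples, 89.3, 107 and 99.5 TPM in those of Rop7-II and 32.5, 32.4 and 34.9 TPM in those of Rop7-III, and Sall2, a zinc finger gene, at 1.63, 1.57 and 1.7 TPM, 1.85, 1.76 and 2.18 TPM and 6.47, 6.76 and 6.73 TPM in the same order of clones. In both genes Rop7-III was the clone that differed, with little spread within a clone. Rnase4 was over an adjusted p of 0.01 without any 1 of 2 samples (up to 0.0115). Near the Tcrb locus, Ephb6 (chromosome 6, 41603834 to 41620509) and the adjacent Trpv6 rose, the latter over the limit without Rop7-III replicate 3 (adjusted p = 0.011), and Smo, the Hedgehog signal transducer, fell from 5.11 to 1.4 TPM with 0.45 TPM in Rop7-II.

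Chromosome 2 held 11 called genes of 909 tested (1.21%, against 1.09% of all tested genes), all of them higher in Rop7-III. Chromosome 11 held 19 of 997 (1.91%), of which 9 were higher and 10 lower. On chromosome 2 these included Bub1b, Nusap1, Sord and Pltp, a phospholipid transfer protein gene that stood at 7.35, 6.15 and 6.78 TPM in the Rop7-I samples and 19.97, 22.8 and 22.7 TPM in those of Rop7-III. The mean level of Rop7-II was between those of Rop7-I and Rop7-III for 35 of the 75 genes called higher, below both for 32 and above both for 8. For the 54 called lower it was between for 37, above both for 9 and below both for 8.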

How the data were processed

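RNA-seq gene levels of sorted CD8 T cells were analysed, 3 samples of each of the 3 Rop7 lines, grouped by their labels. The deposited values were TPM that the authors had estimated with RSEM, and the submitters' processing notes also name DESeq2 1.8.1, RSEM 1.2.11 and the mm10 genome. TPM keeps no counts, so the depth of each sample could not be read from the values and no counting interval is given.

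Genes with more than 1 TPM in at least 1 of the 6 compared samples were kept, and log2(TPM + 1) of all 9 samples was fitted with limma 3.58.1 in R 4.3.3, with 1 mean per clone, a spread shared by the 3 clones and a trend of the spread with the level. The Rop7-III minus Rop7-I contrast was adjusted by Benjamini-Hochberg over 11811 genes, with an adjusted p under 0.01 for a passed gene and at least 2-fold in addition for a called gene. An exact two-sided permutation test of 3 against 3 samples cannot go below p = 0.1 and was not used. The rule for named genes took the 12 largest called rises, the 12 largest called falls, at most 4 passed genes of every list in order of adjusted p, and Cd5, Nr4a1, Il7r, Mki67, Cd3e, Cd8a and Cd28. Of those named singly, the study named Il7r only as a transcript and followed the others as protein or by a reporter. All other genes were named after their values were seen, and a few genes of the lists are not reported here. The members, gene lists and tests were chosen with earlier results of these data known. Positions and promoters were taken from RefSeq for GRCm38.p6, the release of mm10. Alternatives were other added constants, filters, scalings and fits, each sample left out in turn, a replicate block, and, chosen after seeing the data, the B-cell marker level as a covariate.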

Additional observations from a re-analysis of the deposited data

How the results depend on the processing

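Against 129 called and 598 passed genes, leaving out 1 sample gave 84 called genes without Rop7-III replicate 2 to 161 without Rop7-II replicate 1, with 51 (without Rop7-III replicate 3) to 79 higher and 32 (without Rop7-III replicate 2) to 82 lower, and 247 to 841 passed genes, with 134 (without Rop7-III replicate 3) to 432 higher and 104 (without Rop7-I replicate 1) to 409 lower, all highest values being without Rop7-II replicate 1. Called genes numbered 84 (47 higher) where at least 1 TPM was required in each of the 6 samples, 252 (130 higher, 122 lower) at 1.5-fold, 83 lower with only Rop7-III and Rop7-I in the fit, and 47 (29 higher, 18 lower) when that fit also held the B-cell covariate. Passed genes numbered 1032 with sample weights (541 higher, 491 lower), 926 with only Rop7-III and Rop7-I (480 and 446), 1605 at an adjusted p under 0.05 (869 and 736) and 69 with the B-cell covariate in the fit of the 6 samples (40 and 29). With the replicate number as a block, 377 genes passed (209 higher, 168 lower) and 104 were called. The labels do not say that equal numbers share a day or a mouse, and the deviations of equally numbered Rop7-III and Rop7-I samples correlated at 0.025, 0.077 and 0.02 across genes, so the numbers were not taken to pair the samples. Replicates 1 and 2 of Rop7-III correlated best with their own number and replicate 3 did not. Under the block there were 7 falls in the interferon-stimulated list against 12, 5 in the class I list against 9 and 7 rises in the G2/M list against 12. Leaving out 1 sample moved the rises from 2 to between 0 and 3 in the Notch list, 1 and 3 in the PI3K and AKT list, 0 and 3 in the list of costimulatory and coinhibitory receptors, 1 and 2 in the Bcl2 and integrin lists and 0 and 2 in the S-phase list, and from 3 to between 1 and 3 in the cytotoxic list, the highest values being reached without Rop7-II replicate 1 in each. Another scaling moved the median of all genes to 0.0143 (common median) or 0.0087 (quantile normalization). Of 210 genes followed through all settings, 53 kept direction and side in every setting, in the fits with 1 sample left out as well as the others. The sign turned for genes that had not passed: Nr4a1 to 0.6483 and 0.6559 and Cd3e to -0.0359 and -9e-04 with the B-cell covariate in the fits of 9 and 6 samples, and Mx1 to 0.0139 with it in the fit of 9. The causes were not tested. TPM without counts does not show how far depth limits the low genes.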
